A study of Mus musculus with 2 samples.

Results

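Sox1, Sox2, Pax6, Pax3 and Olig2 are transcription factor genes of neural progenitor cells, and at their 5 loci no transcript was called different in the table deposited for a study of non-neural ectoderm and the remaining neural tube. The members were found by position: every transcript of the authors' deposited table whose mm9 locus overlapped a window around 1 of the 5 genes, which gave 23 of the 55418 transcripts. Of these 23, 2 lay at the Sox1 locus, 3 at Sox2, 14 at Pax6, 3 at Pax3 and 1 at Olig2. The rule that found their transcripts used positions only, although the genes were picked with earlier results of these data known.

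The cells came from mouse embryos at embryonic day 9.5 with 21 to 25 somites, from a cross of mTmG reporter mice with Grhl3-cre mice, both on a C57BL/6 background. Cells that had expressed Cre from Grhl3, an epithelial transcription factor gene, carried membrane GFP and were sorted as non-neural ectoderm. All other cells kept membrane RFP and were sorted as the remaining neural tube cells, so both pools carry the same 2 transgenes and the GFP label records past as well as present Grhl3 expression. Tissue outside the neural tube had been dissected away, the RNA came from a pool of 25 embryos, and there was 1 library for each of the 2 pools.

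The table limits what can be said of direction and identity. It calls its conditions q1 and q2, and a positive log2 fold change is read as higher in q2 than in q1. That reading follows the order in which the conditions are named and was not checked against the abundances. The names q1 and q2 match neither library's labels, so no difference is assigned to the GFP-positive or the RFP-positive cells. The 2 columns of abundance are not used here for the same reason, and a level in each pool is not given. Transcripts carry IDs without gene names. A statement about a locus therefore covers every transcript there, whichever gene it belongs to. With 1 library a condition there is no replicate check, and the p-values and errors compare those libraries, not the cell populations. In pooled cells, fewer cells expressing a gene and less RNA in each cell cannot be told apart.

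The SoxB1 factors Sox1 and Sox2 keep cells of the neural plate and tube in a dividing, undifferentiated state, and Sox2 is also made in parts of the surface ectoderm and foregut. Along the dorsoventral axis of the tube, signals from the roof and the floor set bands of progenitors with different factors. Pax3 marks the dorsal progenitors and the neural crest, Pax6 a broad middle region as well as eye and nasal ectoderm, and Olig2 the progenitors of motor neurons in the ventral tube. Mice that lack Pax3 function often fail to close the neural tube.

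How much of each locus is the gene itself differed. By RefSeq on the later build GRCm38.p6, the gene Pax3 is 95870 bases long and Olig2 is 3128 bases long, exactly the spans of their loci in the table. The Sox2 locus spanned 117613 bases, exactly the RefSeq length of Sox2ot, a long non-coding RNA gene that contains Sox2, whereas Sox2 itself is 2467 bases long. The Sox1 locus spanned 50962 bases, exactly the length of Sox1ot, a long non-coding RNA gene around the 4037 bases of Sox1. The Pax6 locus spanned 160990 bases, against 29515 for the gene Pax6, which RefSeq overlaps with the non-coding Pax6os1 and the coding Elp4. RefSeq also overlaps Olig2 with a non-coding gene, Gm52261, which is 5196 bases long and so longer than the locus in the table. At Sox1, Sox2 and Pax6, transcripts of the factor and of an overlapping gene can stand side by side, and the table does not say which is which. Whether reads were assigned by strand is not stated, so overlapping genes may share them. The exact matches hold when starts are counted from 0, so the coordinates given here have 1 added to the start.

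Across the 5 loci, 17 of the 23 transcripts were tested by the authors, 16 of them with a finite fold change. None of the 17 was called different in the authors' deposited table, where 0.803% of all 29405 tested transcripts were called. None had an unadjusted p-value under 0.05, a level that 3.10% of all tested transcripts passed. The lowest p-value of the members in the authors' deposited table was 0.147, at Pax3, and every q-value of a tested member was 0.999983. Against a share called as low as this, 0 of 17 does not set these loci apart from the rest of the table.

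Most of the fold changes lay within 2-fold, as did most of those in the whole table. Of the 16 finite values, 14 lay within 2-fold and 2 reached it, both at Pax3, while 13.4% of the 28140 finite tested values in the table did so. The median size of the log2 fold change was 0.32 over the members, against 0.26 over all tested transcripts. In sign, 11 were negative and 5 positive, and among all finite tested values 49.5% were negative. Transcripts of 1 locus can share reads, and 7 of the 11 negative values came from Pax6, so these are not 11 separate observations.

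**Figure D1:**
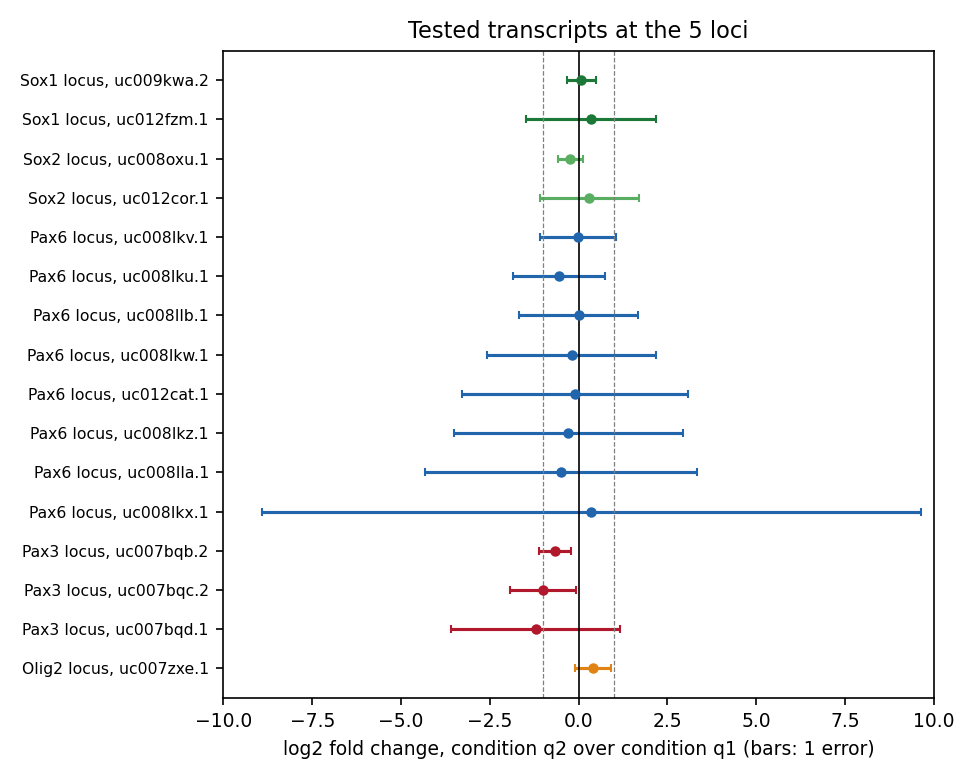
Log2 fold change of condition q2 over condition q1 for the 16 tested transcripts with a finite value, grouped by locus and ordered by error within it. Points are the values of the authors' deposited table, bars reach 1 error to each side, and dashed lines mark 2-fold; the errors run from 0.36 at Sox2 to 9.27 at Pax6, and the 2 points past the dashed lines are at Pax3.

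The error given for each log2 fold change is the fold change over the test statistic in the authors' deposited table, without sign, and 95% intervals reach 1.96 errors to each side. These errors express how firmly the authors' model fixed the ratio between 2 libraries and hold no variation between embryos. All 16 intervals included 0. They excluded a difference of 2-fold or more in 2 transcripts and of 4-fold or more in 4, so for most members the interval was wide, and the absence of a call does not show equal levels.

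The Sox1 locus lies on chromosome 8, at chr8:12385771-12436732 of mm9. In the authors' deposited table, transcript uc009kwa.2 stood at a log2 fold change of 0.08 (error 0.42), and its 95% interval ran from -0.74 to 0.89. The interval ends at a 1.86-fold difference, so 2-fold was outside it in either direction. The other transcript, uc012fzm.1, stood at 0.34 with an error of 1.84, which leaves its ratio nearly unconstrained. Both values were positive, and both were 0.19 errors from 0.

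The Sox2 locus lies at chr3:34459303-34576915 of mm9. Transcript uc008oxu.1 had a log2 fold change of -0.23 in the authors' deposited table, with an error of 0.36, the smallest of all members, and a 95% interval from -0.93 to 0.46. This interval, too, excluded a 2-fold difference in either direction, and its far end stood at 1.91-fold. Transcript uc012cor.1 was listed at 0.31 with an error of 1.40, and uc012cos.1 at the same 0.31 but with too little data for a test. Equal non-zero fold changes within a locus were uncommon: 62 of the 8609 loci with several such transcripts, or 0.720%, held any. Of the 2 tested transcripts, then, the well measured one was slightly negative and the poorly measured one slightly positive, at 0.66 and 0.22 errors from 0.

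At Pax6 the measurement was poor. Its locus, chr2:105376237-105537226 of mm9, listed 14 transcripts, of which 9 were tested and 5 were not. The best measured, uc008lkv.1, had a log2 fold change of -0.02 in the authors' deposited table, with an error of 1.07 and an interval from -2.13 to 2.09, so that even a 4-fold difference lay inside it. The next, uc008lku.1, stood at -0.55 with an error of 1.29. The other 6 finite values ran from -0.49 for uc008lla.1 to 0.36 for uc008lkx.1, whose error of 9.27 was the largest of all members. Among the 8 finite values, 7 were negative and 1 positive. The ninth tested transcript, uc008llc.1, was a positive ratio against 0 with a p-value of 0.364 in the authors' deposited table, and no fold is given for it. Of the 5 left untested, 4 were listed with a log2 fold change of 0, and uc012car.1 stood at -0.85 with an error of 8.01.

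Other loci with as many transcripts also had wide errors. Leaving out Pax6 itself, the 143 finite tested values at loci listing 14 had a median error of 2.38, with quartiles of 1.16 and 4.90. Leaving out the members in the same way, loci listing 1 transcript had a median error of 0.44, loci listing 2 one of 0.68 and loci listing 3 one of 0.92. Whether the gene Pax6 as a whole differed cannot be read from transcripts with errors this wide.

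Among tested transcripts with a finite value, the 3 at Pax3 had the largest fold changes of the 5 loci. At chr1:78097842-78193711 of mm9, transcript uc007bqb.2 had a log2 fold change of -0.66 in the authors' deposited table, a 1.58-fold lower value in q2 than in q1, with an error of 0.46. Its 95% interval ran from -1.55 to 0.23, and its p-value of 0.147 gave a q-value of 0.999983 in that table. Transcript uc007bqc.2 was 2.01-fold lower in q2, with an error of 0.93 log2 units, and uc007bqd.1 stood at -1.21 with an error of 2.38. All 3 were negative, and each passed through 0 within its interval. The value of uc007bqb.2 was lower than all but 9.72% of the tested fold changes in the table, that of uc007bqc.2 than all but 5.66% and that of uc007bqd.1 than all but 4.26%. These 3 transcripts are listed at 1 locus and can share reads, so their common sign is not 3 independent results.

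Olig2 had the only locus listing a single transcript, and its span is the length of the gene. At chr16:91225795-91228922 of mm9, uc007zxe.1 had a log2 fold change of 0.40 in the authors' deposited table, 1.32-fold higher in q2 than in q1, with an error of 0.51 and a 95% interval from -0.59 to 1.40. The p-value there was 0.429. Calls were more frequent among such loci than over the whole table, at 2.54% of 4207 tested transcripts. In RefSeq the next coding gene is Olig1, a related basic helix-loop-helix factor of 2171 bases. The next tested locus of the table, chr16:91270014-91272184, spanned the same 2171 bases and its 1 transcript, uc007zxf.1, stood at 0.44 with an error of 0.70. The table does not name it. Both values were positive and neither was called.

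**Figure D2:**
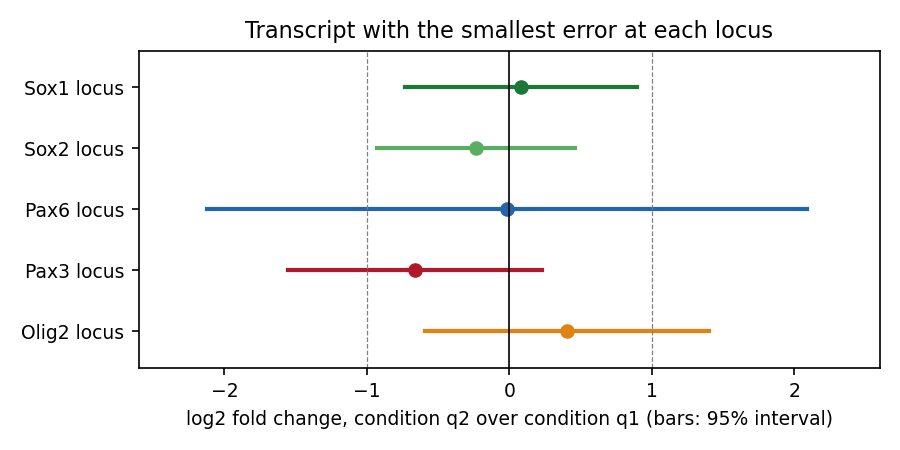
Log2 fold change of condition q2 over condition q1 for the transcript with the smallest error at each locus, with its 95% interval; dashed lines mark 2-fold. The intervals at Sox1 and Sox2 stay inside the dashed lines, those at Pax3 and Olig2 cross 1 of them, and that at Pax6 crosses both.

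Set side by side, the best measured transcripts gave 0.08 at Sox1, -0.23 at Sox2, -0.02 at Pax6, -0.66 at Pax3 and 0.40 at Olig2 as log2 fold changes. Taking 1 transcript a locus was decided after the values were seen. In order from most negative to most positive, the loci were Pax3, Sox2, Pax6, Sox1 and Olig2. No neighbours in this order differed beyond their combined error. The widest gap was between the dorsal factor Pax3 and the ventral factor Olig2, at -1.06 for Pax3 minus Olig2 with an error of 0.68 and a 95% interval from -2.40 to 0.27. Of the 10 pairs of loci, 0 had an interval that left out 0, and the gaps ran from 0.085 to 1.56 combined errors. The combined errors treat the 2 loci of a pair as independent.

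What size of difference was called at the same precision can be read from the rest of the table. For the best measured transcript of each locus, transcripts outside the 5 loci with an error within 10% of its own were taken. Around uc008oxu.1 at Sox2 there were 2518, of which 29 were called, and the smallest call had a log2 fold change of 1.23 in size. Around uc009kwa.2 at Sox1, 50 of 2627 were called, from 1.70 upwards. Around uc007bqb.2 at Pax3, 56 of 2718 were called, also from 1.70, and 92.2% of the 2718 had a smaller fold change than uc007bqb.2. Around uc007zxe.1 at Olig2, 44 of 2786 were called, from 1.75, and 78.1% were smaller. The error ranges taken overlap between Sox2 and Sox1, between Sox1 and Pax3, and between Pax3 and Olig2. These sets therefore share transcripts and are not separate benchmarks. At Pax6, around uc008lkv.1, 3 of 1503 were called, and the smallest of those calls was 3.57. The largest uncalled size passed the smallest call around uc008oxu.1 (1.28), uc007zxe.1 (1.76) and uc008lkv.1 (3.66). It stayed below around uc009kwa.2 (1.42) and uc007bqb.2 (1.68). The smallest call is therefore not a sharp limit, since each set spans a range of errors. These sizes describe the precision of the test. At any single error, an uncalled transcript lies below the called sizes by construction, so the sizes add nothing to the missing calls.

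**Figure D3:**
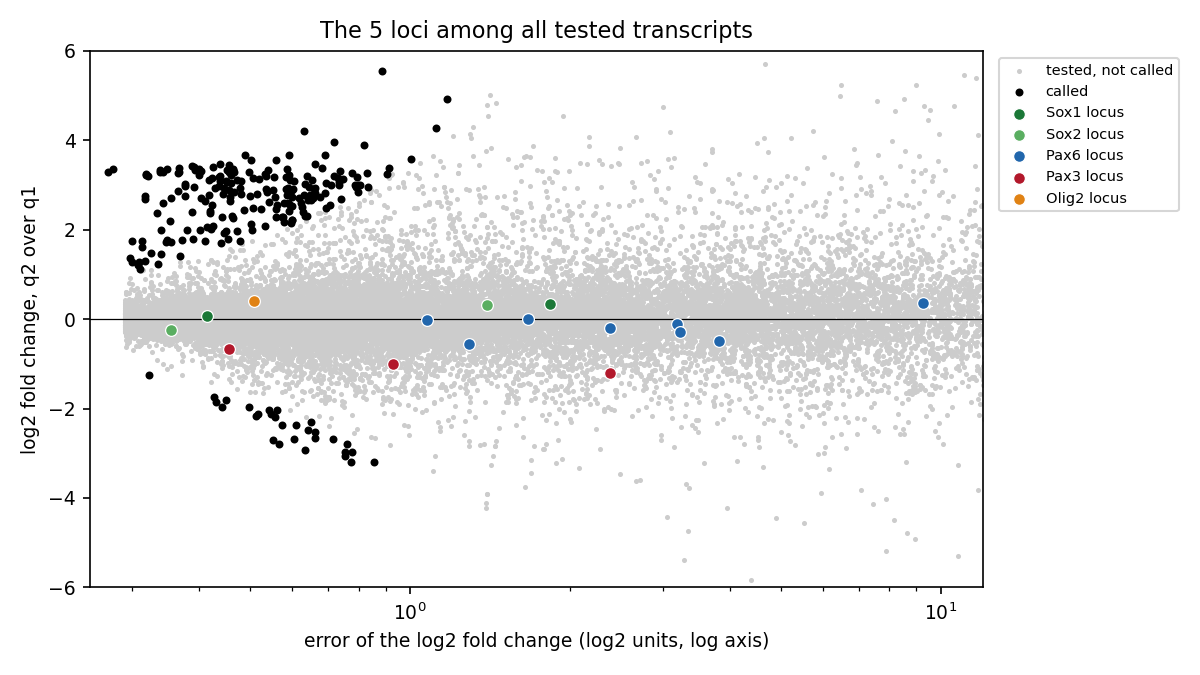
Log2 fold change against its error for the tested transcripts whose fold change was finite, with called transcripts in black and the 5 loci in colour; 1685 transcripts with an error above 12 or a log2 fold change beyond 6 in size lie outside the axes, and 0 of them were called. The members sit within the grey band of uncalled transcripts at every error. The best measured transcripts of Sox2, Sox1, Pax3 and Olig2 are among the well measured, and that of Pax6 lies further right. Transcripts uc012fzm.1 at Sox1 (error 1.84), uc012cor.1 at Sox2 (1.40) and uc007bqd.1 at Pax3 (2.38) fall within the range of errors at Pax6.

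The best measured transcripts of the nearest tested loci, some of them far off, were read as well. For each of the 5 loci, the nearest tested locus at lower and at higher coordinates was taken, 10 in all. The distance ran from 3039 bases, above Pax6, to 1076144 bases, above Sox2. At each of these 10 loci, the transcript with the smallest error was read. Their log2 fold changes in the authors' deposited table ran from -0.39, for uc007bpz.1 below Pax3, to 0.51, for uc007bqg.1 above it. At Pax3 itself the value was -0.66, which lay 0.48 combined errors from that of uc007bpz.1 and 1.90 from that of uc007bqg.1, so neither gap reached 1.96 errors. The locus 3039 bases beyond the Pax6 locus, uc008lld.1, stood at -0.05 with an error of 0.37. None of these 10 transcripts was called. Over all tested transcripts the share called was 0.803%, so this does not set the neighbouring loci apart.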

How the data were processed

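RNA was sequenced from 1 library of each sorted pool, prepared with Illumina's TruSeq RNA kit per the labels. TopHat 1.3.2, Cufflinks 2.0.2, Cuffdiff and the build mm9 are named in the submitters' processing notes. Not given in the sources used here were Cuffdiff's version, its settings, the annotation and the use of strand. The authors deposited 1 table with a log2 fold change, a test statistic (a score), a p-value and a q-value for each transcript. In the fold changes, placeholders at the limit of the number format mark ratios against 0, which count as tested but enter no fold change summary. The status column separates tested transcripts from those not tested or with too little data. The 2 abundance columns could be matched to no sample and were not used. Library depth is unknown, and no counting interval is given.

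Members were the transcripts whose locus overlapped the window of a gene. The members and the choice of comparisons were made with earlier results of these data known. A list of 18 other patterning genes was planned but not analysed, because transcripts carry no gene names on this build. A call is a transcript marked significant by the authors. The error of a fold change is its size over that of its statistic. For the finite tested members, the deposited p-values equalled two-sided normal p-values of that statistic to within 1.8e-06. For these same members, each statistic had the sign opposite to its fold change, and the fold change's sign is used here. The Benjamini-Hochberg adjustment, used for 1 alternative, was tested on simulated data. RefSeq tables of GRCm38.p6 served for names, lengths and neighbours only. The work was done in Python 3.11.15 with pandas 2.3.3, numpy 2.4.6 and scipy 1.17.1, and plots were drawn with matplotlib 3.10.9.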

Additional observations from a re-analysis of the deposited data

How the results depend on the processing

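The count of 0 calls among the members was the same at a q-value of at most 0.01 and of at most 0.1. It was also the same with the deposited p-values adjusted over all rows. At loci that list 1 transcript, where the 1 transcript of Olig2 was the only member, it was 0 as well. None of these settings could have given a call. In the authors' Cuffdiff test every tested member had a q-value of 0.999983, and the lowest p-value was 0.147. The unchanged count is therefore no sign of a stable result. The 2 transcripts at least 2-fold apart, both at Pax3, became 0 under a 4-fold limit and 0 where the error had to be 0.6 or less. Counting ratios against 0 gave 3, and counting every status gave 2. The limit on the error and the ratios against 0 were chosen after seeing the data. Centring on the median of all tested transcripts moved each of the 16 values by 0.0046 and turned none round. Requiring a locus to lie wholly inside its window left 0 transcripts, so no value could be had. The pseudocount setting was not run, because the abundances were not used. With 1 library a condition, none could be left out. No paired analysis was possible because each condition has 1 library and the columns carry no replicate number.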
